A study of Mus musculus with 24 samples.

Results

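The genes described here are 8 genes of the complement system other than adipsin, taken by symbol from 37310 genes: C1ra, Masp1, C2, Cfb, C4b, C3, Serping1 and Cd55. Complement is a set of plasma and surface proteins, made in the liver and also by fat cells, stromal cells and macrophages, in which each protease cleaves and activates the next component. The classical pathway starts with C1 and the lectin pathway with mannose-binding lectins and their proteases. Both cleave C4 and C2 to build a convertase. The alternative pathway builds its convertase from C3 and factor B with the help of adipsin (factor D, gene Cfd), which adipocytes secrete in large amounts. All 3 routes meet at C3, whose fragments tag surfaces and signal to cells, while inhibitors in plasma and on membranes hold the cascade back.

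RNA was sequenced from primary stromal vascular cells of inguinal white fat (WAT) and interscapular brown fat (BAT) of 6-week-old C57BL/6 mice, which were brought to differentiate into adipocytes in culture. All cultures received an induction medium with insulin, dexamethasone and isobutylmethylxanthine for 4 days. Those kept until day 8 then grew in a medium with insulin and T3, the active thyroid hormone, so day and medium cannot be told apart. Cells were harvested on day 4 or day 8 after growing with EGCG (epigallocatechin gallate, the main catechin of green tea, at a dose the labels do not give) or with the solvent DMSO (control). The 2 depots, 2 days and 2 treatments give 8 groups of 3 libraries each. Stromal vascular cells are a mixture, and the labels do not say whether replicates came from separate mice or cultures, so p-values measure the spread between these libraries, which may be technical.

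Values are FPKM, a read count scaled to the length of the transcript and to all counted reads of the library. Replicates 1 and 2 of all groups came in one table of 16 libraries with 39452696 to 52893848 reads on genes. Replicate 3 came in a second table of 8 libraries with 16392420 to 41675643 reads, which was scaled separately and here gives values and directions but enters no test. In its WAT day 8 EGCG library 5 genes took 61.01% of the reads, against 3.65% to 9.08% in its other 7 libraries. Values of that library are given as deposited and, as decided after the data had been seen, rescaled without those 5 genes (2.56 times higher). The other 7 libraries, whose factors without their own top 5 genes would be 1.04 to 1.10, were not rescaled. Rescaled values therefore stand slightly high beside them. Summed FPKM of 4 brown-fat identity genes (Zic1, Lhx8, Ebf2, Prdm16) was 35.7 to 59.0 in BAT and 16.9 to 35.5 in WAT libraries of replicates 1 and 2, and that of 4 genes of white depots (Hoxc8, Hoxc9, Hoxc10, Tcf21) was 3.39 to 10.03 in BAT and 14.8 to 34.9 in WAT. Within each day and treatment the labelled depots therefore differed as their names say, with Tcf21 at or near 0 (at most 0.0987 FPKM) in both. Across days the brown-fat sums nearly met, and in replicate 3 WAT day 4 control (28.7) stood above BAT day 8 control (28.1).

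EGCG lowered most of these complement genes in both depots and raised one of them, Cd55. The falls of C2, C3, C4b, C1ra and Serping1 were larger on day 8 than on day 4 in both depots, by the test of the difference given further on. C3 was 59.1-fold lower with EGCG in WAT and 74.5-fold lower in BAT on day 8, C4b was 11.1-fold and 31.1-fold lower, and Cd55, which encodes a membrane inhibitor of the convertases, was 1.75-fold and 2.11-fold higher (ratios of mean FPKM, n = 2 libraries a group). Of the 7 genes that passed the expression filter (at least 1 FPKM in at least 2 of 16 libraries), limma called 1 higher and 4 lower in WAT on day 4, 1 higher and 6 lower in WAT on day 8, 1 higher and 5 lower in BAT on day 4, and 1 higher and 6 lower in BAT on day 8. A call needs a Benjamini-Hochberg adjusted p under 0.05 over 14095 genes. Of all genes tested, EGCG raised 34.4% and lowered 19.3% in WAT on day 4, raised 44.7% and lowered 18.9% in WAT on day 8, raised 27.9% and lowered 20.6% in BAT on day 4, and raised 46.5% and lowered 26.1% in BAT on day 8. The median log2 change of the 7 genes in these 4 comparisons was -0.29, -1.98, -0.57 and -1.84, beside medians of 0.087, 0.17, 0.032 and 0.17 over all genes. Median-ratio scaling brought the day 8 medians of all genes to 0.005 in WAT and 0.019 in BAT and left the counts of called members as they were, other than in WAT on day 4, where 5 in place of 4 were lower. Cfb, the remaining gene, failed the filter.

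**Figure D1:**
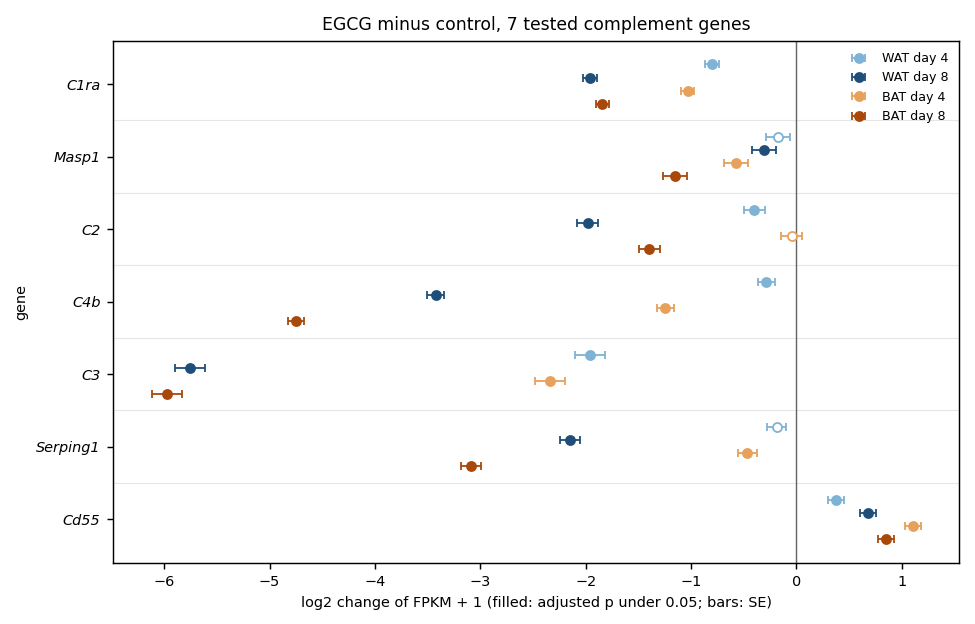
Log2 change of FPKM + 1 between EGCG and control cells (x axis) for the 7 tested complement genes (y axis) in WAT and BAT on days 4 and 8. Points are limma estimates with SE bars from replicates 1 and 2, filled where the adjusted p was under 0.05. Only Cd55 lies right of 0, and C3 and C4b on day 8 lie farthest left.

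The same EGCG cells carried less of the markers of mature fat cells. All 8 markers of mature adipocytes (such as Adipoq, Plin1 and Fabp4) were lower in each of the 4 comparisons. In WAT their summed FPKM in replicates 1 and 2 was 3694 to 4060 in controls and 1104 to 1155 with EGCG on day 4, and 5654 to 6264 and 650.3 to 712.2 on day 8. In BAT it was 6263 to 7257 and 1529 to 1592 on day 4, and 9935 to 10030 and 464.0 to 471.9 on day 8. Macrophage markers went another way: of 7 tested genes 6 were higher in WAT and 4 higher in BAT on day 4, and 7 and 6 were lower on day 8. With quantile normalization 3 in place of 6 were higher in WAT on day 4. The summed FPKM of the 8 listed macrophage markers was 74.4 to 79.4 in WAT controls and 191.9 to 197.3 with EGCG on day 4, and 115.1 to 136.6 and 57.0 to 60.4 on day 8. In BAT it was 173.7 to 183.4 in controls and 375.5 to 417.5 with EGCG on day 4, and 118.2 to 118.7 and 59.8 to 61.0 on day 8. The 5 endothelial markers summed to 9.53 to 22.9 FPKM in controls and 27.1 to 35.8 with EGCG, and 3 or 4 of them were higher in each comparison (2 in BAT on day 8 with median-ratio scaling). On day 8, 1 of the 5 was lower in each depot (2 in WAT with median-ratio scaling or quantile normalization). Of 5 tested markers of stromal and progenitor cells 1 was higher and 1 to 4 lower, their list of 6 summing to 2412 to 5221 FPKM in WAT and 1139 to 1616 in BAT libraries. Mesothelial markers summed to 5.31 FPKM or less. Among the defining markers, Upk3b of mesothelium stayed at 0.0107 FPKM or less and Dpp4 of fat progenitors at 0.953 or less. In these bulk samples fewer cells of a type and less RNA per cell cannot be told apart, and the part of any of these cell types in the complement results was not tested.

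**Figure D2:**
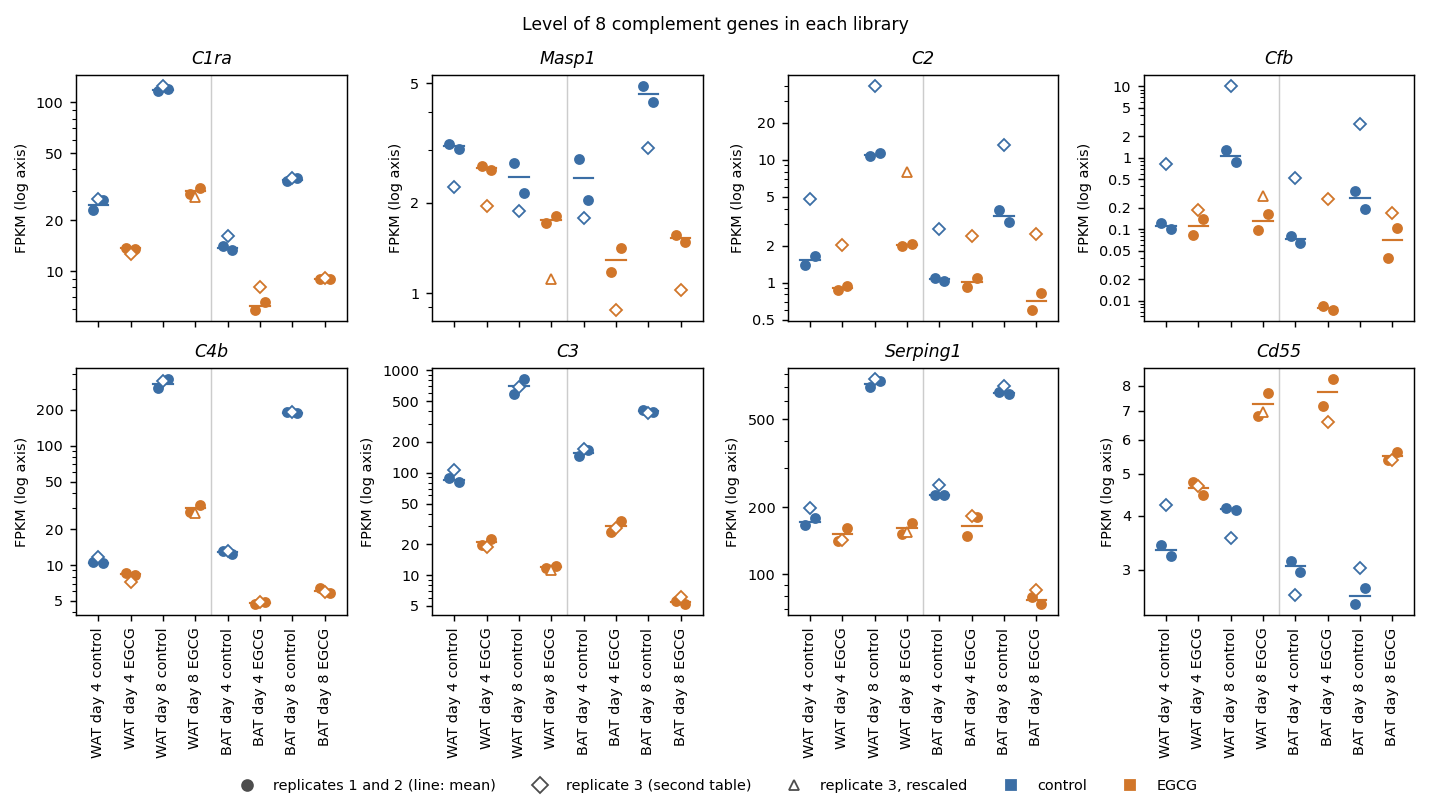
FPKM (y axis, log scale) of the 8 complement genes in each library of the 8 groups (x axis), with replicates 1 and 2 as filled circles, their mean as a line and replicate 3 of the second table as an open diamond (a triangle where rescaled). For C3, C4b and C1ra the WAT day 8 control libraries sit highest, Cd55 is highest with EGCG, and in most groups the open symbols of C2 and Cfb lie well above the filled ones.

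C1ra encodes the protease C1r, which activates C1s inside the C1 complex and so opens the classical pathway. The gene (ENSMUSG00000055172.8) lies on the plus strand at chr6:124462423-124473458 in mm9. In WAT controls its FPKM in replicates 1, 2 and 3 was 22.9, 26.3 and 26.9 on day 4 and 117, 120.0 and 125 on day 8. With EGCG these values were 13.8, 13.5 and 12.7 on day 4 and 28.6, 30.9 and 10.7 on day 8, the last being 27.4 after rescaling. BAT controls held 14.1, 13.4 and 16.2 on day 4 and 34.1, 35.5 and 35.6 on day 8, and BAT EGCG cells 5.89, 6.52 and 8.03 and 9.03, 8.93 and 9.08. EGCG and control libraries did not overlap in any of the 4 settings. On the log2(FPKM + 1) scale the EGCG change was -0.80 ± 0.065 (SE, adjusted p 1.32e-06) in WAT on day 4 and -1.96 ± 0.065 (SE, adjusted p 5.36e-10) on day 8. In BAT it was -1.03 ± 0.065 (SE, adjusted p 1.79e-07) on day 4 and -1.84 ± 0.065 (SE, adjusted p 3.41e-10) on day 8. C1ra shared 1.0% of its exonic bases with its near copy C1rb, which reached at most 0.696 FPKM in replicates 1 and 2. How reads that fit both copies were counted is not given in the sources used here.

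The sequence before the start of C1ra is shown because this gene and C3 fell together with EGCG while Cd55 rose, and these are the 3 of 8 genes whose promoters the RefSeq table (GRCm38.p6) holds. No entry was found there for Masp1, C2, Cfb, C4b and Serping1. The 250 bases upstream of each start were searched on both strands for 4 motifs, the interferon-stimulated response element (GAAA and GAAA with 2 free bases between), the interferon gamma activated site (TTCNNNGAA), the kappa B site (GGGA and TTCC with 2 free bases between) and a C/EBP site (TTGCNNAA), and matches are set in capitals. These letters occur in 2.98%, 7.02%, 1.21% and 9.56% of all 32851 windows of that length in the table. The C1ra window, chr6:124512371-124512620 on the plus strand of GRCm38.p6, holds none of the 4.
C1ra: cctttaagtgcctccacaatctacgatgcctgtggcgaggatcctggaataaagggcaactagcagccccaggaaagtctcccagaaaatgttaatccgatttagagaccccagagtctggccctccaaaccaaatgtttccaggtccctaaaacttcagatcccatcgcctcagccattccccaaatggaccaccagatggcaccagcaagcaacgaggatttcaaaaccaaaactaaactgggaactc

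Masp1, a protease that the lectin pathway uses in the place of C1r and C1s (ENSMUSG00000022887.7, chr16:23449490-23520676, minus strand, mm9), was expressed at a low level and fell with EGCG in BAT and, on day 8, in WAT. WAT controls stood at 3.14, 3.02 and 2.26 FPKM on day 4 and 2.71, 2.155 and 1.88 on day 8, and WAT EGCG cells at 2.66, 2.57 and 1.95 and 1.71, 1.80 and 0.435 (1.115 after rescaling). In BAT the control values were 2.80, 2.05 and 1.77 on day 4 and 4.90, 4.32 and 3.05 on day 8, against 1.18, 1.41 and 0.880 and 1.57, 1.48 and 1.03 with EGCG. Replicate 3 was the lowest library of every group, and its mean over 7 groups was 0.713 times that of replicates 1 and 2. Within each depot and day the EGCG libraries of replicates 1 and 2 were all below the control libraries. The change was -0.17 and not called in WAT on day 4 (adjusted p 0.212), -0.31 ± 0.11 (SE, adjusted p 0.0287) in WAT on day 8, -0.57 ± 0.11 (SE, adjusted p 0.0012) in BAT on day 4 and -1.15 ± 0.11 (SE, adjusted p 1.69e-06) in BAT on day 8. The WAT day 8 call was lost in 5 alternatives, among them without WAT day 8 control replicate 1 (-0.19, adjusted p 0.209) and without WAT day 8 EGCG replicate 1 or 2 (adjusted p 0.112 and 0.0675), and with voom on recovered reads the change was -0.48 there and -0.88 in BAT on day 4. In WAT on day 4 Masp1 was called with quantile normalization (-0.30, adjusted p 0.0353).

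C2 is the protease that joins cleaved C4 to form the C3 convertase of the classical and lectin pathways, and Cfb encodes factor B, which does the same with C3 in the alternative pathway. Both genes lie side by side on the minus strand of chromosome 17 in mm9, C2 (ENSMUSG00000024371.6) at chr17:34999549-35035397 and Cfb (ENSMUSG00000090231.2) at chr17:34993319-34999463, in the major histocompatibility region that also holds C4b. The GENCODE annotation places another gene model across both, Gm20547 (ENSMUSG00000092511.1, chr17:34993357-35018987), whose exonic bases are all shared with them. C2 shared 44.8% of its exonic bases with other genes (Gm20547 and Zbtb12) and Cfb 79.5% (Gm20547).

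Both genes stood higher in the second table than in the first in every group, with the exception of Cfb in WAT day 8 EGCG cells as deposited. For C2 the mean over 7 groups (WAT day 8 EGCG left out) was 2.81 FPKM in replicates 1 and 2 and 9.61 FPKM in replicate 3, a ratio of 3.42, and for Cfb it was 0.245 and 2.16 FPKM, a ratio of 8.81. The other 6 genes had ratios from 0.713 (Masp1) to 1.07 (Serping1). Gm20547 was listed at 0 in all 24 libraries. Over all tested genes with reads in both tables, the second table was more than 2-fold higher for 16 of 9944 genes without shared exonic bases (0.161%), for 54 of 3340 with up to 50% shared (1.62%) and for 22 of 99 with over 50% shared (22.2%). Large differences went both ways: the 5th and 95th percentiles of the log2 ratio were -2.07 and 2.11 with over 50% shared. They were -1.48 and 0.2 without shared bases. Gm20547 and the comparison of the tables were chosen after the values had been seen, and how reads in shared exons were counted in either table was not tested. Levels of C2 and Cfb are therefore not comparable between the tables, and are given below by table.

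**Figure D3:**
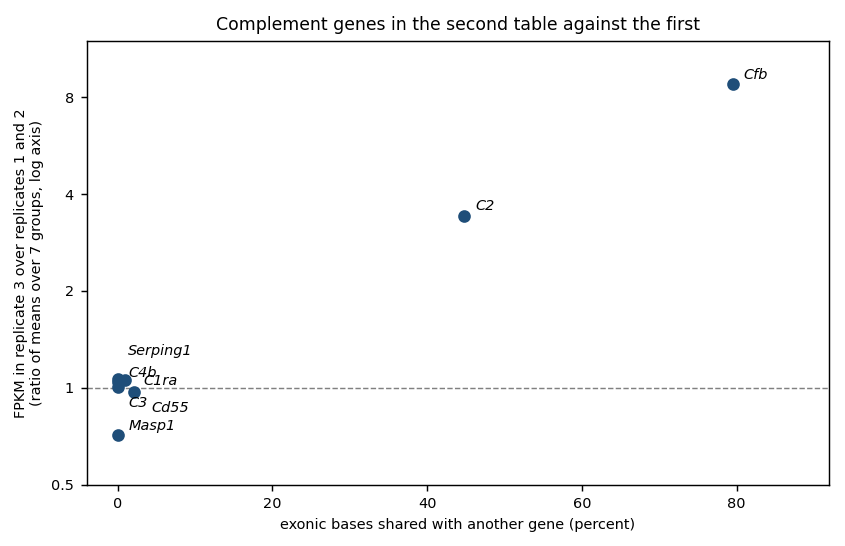
Ratio of mean FPKM in replicate 3 to that in replicates 1 and 2 over 7 groups (y axis, log scale) against the percent of exonic bases shared with another gene (x axis) for the 8 complement genes. C2 and Cfb stand apart at 3.42 and 8.81, and the other 6 genes lie near the dashed line at 1, where both tables are equal.

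In WAT controls C2 was at 1.39 and 1.64 FPKM in replicates 1 and 2 on day 4 (4.76 in replicate 3) and at 10.68 and 11.24 on day 8 (39.9 in replicate 3). With EGCG it was at 0.876 and 0.934 on day 4 (2.04, second table) and at 1.99 and 2.06 on day 8 (3.12, or 7.99 rescaled). BAT controls held 1.09 and 1.04 FPKM on day 4 (2.70) and 3.89 and 3.12 on day 8 (13.03). BAT EGCG cells held 0.914 and 1.09 on day 4 (2.40) and 0.598 and 0.816 on day 8 (2.48). EGCG and control libraries overlapped only in BAT on day 4, where the change was -0.045 (adjusted p 0.745). It was -0.40 ± 0.099 (SE, adjusted p 0.00514) in WAT on day 4, -1.98 ± 0.099 (SE, adjusted p 1.57e-08) in WAT on day 8 and -1.40 ± 0.099 (SE, adjusted p 1.12e-07) in BAT on day 8. These log2 values rest on levels near the pseudocount of 1, and with a pseudocount of 0.1 they were -0.68 in WAT on day 4 and -2.16 in BAT on day 8, with voom on recovered reads -0.73 and -2.31.

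Cfb was near the limit of detection in most groups of the first table. It had 17 and 12 reads in WAT day 4 controls (0.120 and 0.102 FPKM) and 10 and 18 with EGCG (0.0824 and 0.140 FPKM). On day 8 WAT controls had 174 and 96 reads (1.27 and 0.870 FPKM) and EGCG cells 14 and 18 (0.0979 and 0.164 FPKM), so the ratio of the means was 8.17. BAT controls had 9 and 8 reads on day 4 and 44 and 21 on day 8, and BAT EGCG cells had 1 and 1 on day 4 and 5 and 15 on day 8, with no overlap between EGCG and control within a day, where a count of 3 reads corresponds to 0.0206 to 0.0276 FPKM. In replicate 3 WAT controls held 0.821 FPKM on day 4 and 10.18 on day 8, EGCG cells 0.186 and 0.113 (0.291 rescaled), BAT controls 0.519 and 2.96, and BAT EGCG cells 0.260 and 0.169. The WAT day 8 control libraries were thus the highest in both tables. A limma fit without the filter (26587 genes), added after the data had been seen, gave -0.87 ± 0.084 SE for EGCG in WAT on day 8 (adjusted p 1.99e-05) and -0.24 ± 0.084 SE in BAT on day 8 (adjusted p 0.0407), and called neither day 4 comparison (adjusted p 1 in WAT and 0.556 in BAT). The same fit gave 0.89 between days in WAT controls (adjusted p 1.89e-05), 0.24 in BAT controls (adjusted p 0.0465) and -0.70 between BAT and WAT controls on day 8 (adjusted p 0.000137).

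C4b encodes complement C4, the substrate of both C1s and the lectin proteases (ENSMUSG00000073418.4, chr17:34865325-34880827, minus strand, mm9). In WAT controls it rose from 10.6, 10.4 and 11.6 FPKM on day 4 to 303, 360.3 and 351 on day 8, with no library of one day near the other. EGCG cells from WAT held 8.58, 8.25 and 7.215 on day 4 and 28.0, 31.8 and 10.6 on day 8 (27.2 rescaled). In BAT, controls held 13.1, 12.5 and 13.1 on day 4 and 192, 187 and 192 on day 8, while EGCG cells stayed at 4.74, 4.875 and 4.92 and 6.39, 5.80 and 5.90. No EGCG library reached its control group. The EGCG change in WAT was -0.29 ± 0.079 (SE, adjusted p 0.00926) on day 4, a call that was lost without WAT day 4 EGCG replicate 2 (-0.26, adjusted p 0.0529), and -3.42 ± 0.079 (SE, adjusted p 2.32e-11) on day 8. In BAT it was -1.25 ± 0.079 (SE, adjusted p 1.85e-07) on day 4 and -4.75 ± 0.079 (SE, adjusted p 2.01e-12) on day 8. The near copy C4a was at 0.201 to 0.779 FPKM in replicates 1 and 2.

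C3 is the component on which all pathways converge (ENSMUSG00000024164.8, chr17:57343397-57367559, minus strand, mm9). Its 41 merged exons share no base with another gene. In controls of both depots it had, with Serping1, the highest FPKM of the 8 genes. Values were 88.0, 81.5 and 106.5 in WAT controls on day 4 and 595, 818 and 696 on day 8. The WAT EGCG libraries were at 19.6, 22.4 and 18.9 on day 4 and 11.6, 12.3 and 4.41 on day 8 (11.3 rescaled). BAT controls stood at 145, 166 and 171 on day 4 and 408, 396 and 386 on day 8, against 26.1, 34.0 and 29.1 and 5.55, 5.26 and 6.13 with EGCG. The 8 groups were fully separated in replicates 1 and 2, and 130.7-fold lay between the highest mean (706.2 ± 157.6 FPKM SD, n = 2, WAT day 8 control) and the lowest (5.40 ± 0.204 FPKM SD, n = 2, BAT day 8 EGCG). The EGCG change was -1.96 ± 0.14 (SE, adjusted p 5.18e-07) in WAT on day 4, -5.75 ± 0.14 (SE, adjusted p 4.37e-11) in WAT on day 8, -2.34 ± 0.14 (SE, adjusted p 1.33e-07) in BAT on day 4 and -5.98 ± 0.14 (SE, adjusted p 1.95e-11) in BAT on day 8. The absolute changes stood at percentiles 98.8, 99.9, 99.7 and 100 of all tested genes, in this order. The C3 window, chr17:57228137-57228386 on the minus strand of GRCm38.p6, holds 1 match to the C/EBP letters, 45 to 38 bases before the start, and none to the other 3 motifs. C/EBP factors drive adipogenesis and acute phase genes, but a match of letters is a description and no evidence of binding.
C3: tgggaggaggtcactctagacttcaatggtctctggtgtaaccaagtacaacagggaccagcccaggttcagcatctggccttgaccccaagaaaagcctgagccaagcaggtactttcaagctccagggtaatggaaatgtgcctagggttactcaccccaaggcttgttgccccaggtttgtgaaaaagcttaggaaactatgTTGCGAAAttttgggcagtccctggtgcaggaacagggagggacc

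Serping1 encodes the C1 inhibitor, which blocks C1r, C1s and the lectin proteases (ENSMUSG00000023224.6, chr2:84605544-84615601, minus strand, mm9). Its level was high throughout, with 166.5, 179 and 198 FPKM in WAT controls on day 4 and 701, 739 and 754 on day 8, and 141.5, 162 and 143 and 152, 171 and 60.4 (155 rescaled) with EGCG. BAT controls had 228, 227 and 253 on day 4 and 665, 648 and 702 on day 8, and BAT EGCG cells 149, 182 and 184 and 78.85, 73.8 and 84.6. On day 4 the WAT EGCG libraries lay just under the controls, without overlap, and the change was -0.19 (adjusted p 0.108). It was called with median-ratio scaling (-0.33, adjusted p 0.0135) and without WAT day 4 EGCG replicate 2 (-0.29, adjusted p 0.0487). The change was -0.47 ± 0.093 (SE, adjusted p 0.00141) in BAT on day 4, -2.15 ± 0.093 (SE, adjusted p 5e-09) in WAT on day 8 and -3.09 ± 0.093 (SE, adjusted p 9.63e-11) in BAT on day 8. EGCG cells on day 8 held 4.46-fold less in WAT and 8.60-fold less in BAT.

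Cd55 encodes decay-accelerating factor, a membrane protein that takes the convertases apart (ENSMUSG00000026399.6, chr1:132335604-132359321, minus strand, mm9), and it was the one gene of the 8 that rose with EGCG. WAT controls were at 3.43, 3.23 and 4.245 FPKM on day 4 and 4.17, 4.13 and 3.56 on day 8. WAT EGCG cells were at 4.79, 4.46 and 4.68 on day 4 and 6.82, 7.68 and 2.72 on day 8, where the replicate 3 value lies below the controls as deposited and above them after rescaling (6.97). In BAT the controls had 3.15, 2.96 and 2.62 on day 4 and 2.505, 2.73 and 3.03 on day 8, and EGCG cells 7.20, 8.27 and 6.60 and 5.39, 5.63 and 5.38. The increase was 0.38 ± 0.076 (SE, adjusted p 0.00135) in WAT on day 4, 0.68 ± 0.076 (SE, adjusted p 1e-05) in WAT on day 8, 1.10 ± 0.076 (SE, adjusted p 3.42e-07) in BAT on day 4 and 0.85 ± 0.076 (SE, adjusted p 8.3e-07) in BAT on day 8. Within each depot and day the EGCG libraries of replicates 1 and 2 were all above the control libraries. The increase kept its sign and its call under each alternative that was run, with a range of 0.51 to 0.79 in WAT and 0.70 to 1.08 in BAT on day 8. The near copy Cd55b was at 0.0640 FPKM or less. The Cd55 window, chr1:130462745-130462994 on the minus strand of GRCm38.p6, has a GC content of 64.0%, against 52.0% for C3 and 49.6% for C1ra, and holds none of the 4 motifs.
Cd55: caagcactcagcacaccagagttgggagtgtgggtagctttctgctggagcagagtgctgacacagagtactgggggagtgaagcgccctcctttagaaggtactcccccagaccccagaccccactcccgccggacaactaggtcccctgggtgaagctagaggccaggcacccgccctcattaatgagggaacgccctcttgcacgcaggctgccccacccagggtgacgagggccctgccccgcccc

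From day 4 to day 8, control cells of both depots gained transcripts of most of the 7 tested genes. In WAT controls 6 of 7 genes were higher on day 8 and none lower, beside 27.7% of all genes higher and 33.2% lower, and the unadjusted p of the remaining gene, Masp1, was 0.0433 (adjusted p 0.068). C4b rose most, by 4.85 ± 0.079 (SE, adjusted p 9.07e-12) or 31.6-fold, followed by C3 (3.03), C2 (2.25), C1ra (2.23) and Serping1 (2.05). Cd55 rose by 0.25 ± 0.076 (SE, adjusted p 0.0131), a call lost with quantile normalization, in a fit of these groups alone and without WAT day 4 control replicate 2 (0.22, adjusted p 0.077), and it went the other way in replicate 3 (-0.20). In BAT controls 6 of 7 genes were higher as well and none lower, beside 28.7% of all genes higher and 40.4% lower, with C4b first again (3.79 ± 0.079 SE, adjusted p 3.46e-11, 14.9-fold) and Cd55 not called (-0.17, adjusted p 0.0714). Masp1 was higher on day 8 in BAT (0.72 ± 0.11 SE, adjusted p 0.000117) and had -0.25 in WAT. In WAT controls Masp1 was called lower on day 8 in 5 alternatives, with values of -0.37 to -0.25, among them quantile normalization (adjusted p 0.0113) and voom (adjusted p 0.0404). Between the same days 7 of 7 tested macrophage markers were higher in WAT controls, with 4 of 8 mature adipocyte markers higher and 1 lower. In BAT controls 6 of 8 mature adipocyte markers were higher and none lower, and of 7 macrophage markers 1 was higher and 2 lower. The part of these cell types, and of the change of medium after day 4, in the day comparison was not tested. Of 19 further complement genes tested (listed below), 17 were higher on day 8 and none lower in WAT controls. In BAT controls 9 of those were higher and 4 lower.

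In EGCG cells some of the genes rose and others fell between the days. In WAT 4 genes were higher on day 8 (C2, C4b, C1ra and Cd55) and 2 lower (C3 and Masp1), beside 31.8% and 27.7% of all genes. C3 fell by 0.76 on the log2 scale between the days (adjusted p 0.000633) whereas C4b still rose by 1.71 (adjusted p 1.32e-08). In BAT 2 genes were higher (C4b and C1ra) and 3 lower (C3, Serping1 and Cd55), beside 29.7% and 28.2% of all genes, with -2.27 ± 0.14 (SE, adjusted p 1.07e-07) for C3 and -1.10 ± 0.093 (SE, adjusted p 1.22e-06) for Serping1. The BAT rise of C4b (0.29 ± 0.079 SE, adjusted p 0.00825) was lost without BAT day 8 EGCG replicate 1 (adjusted p 0.0746), and the WAT fall of Masp1 without WAT day 8 EGCG replicate 1 (adjusted p 0.0523). Mature adipocyte markers fell between the days in EGCG cells of both depots (8 of 8), and 5 of 7 macrophage markers fell in WAT and 6 of 7 in BAT, whose part in these values was not tested. Each of these day comparisons shares its libraries with 2 of the EGCG comparisons above.

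**Figure D4:**
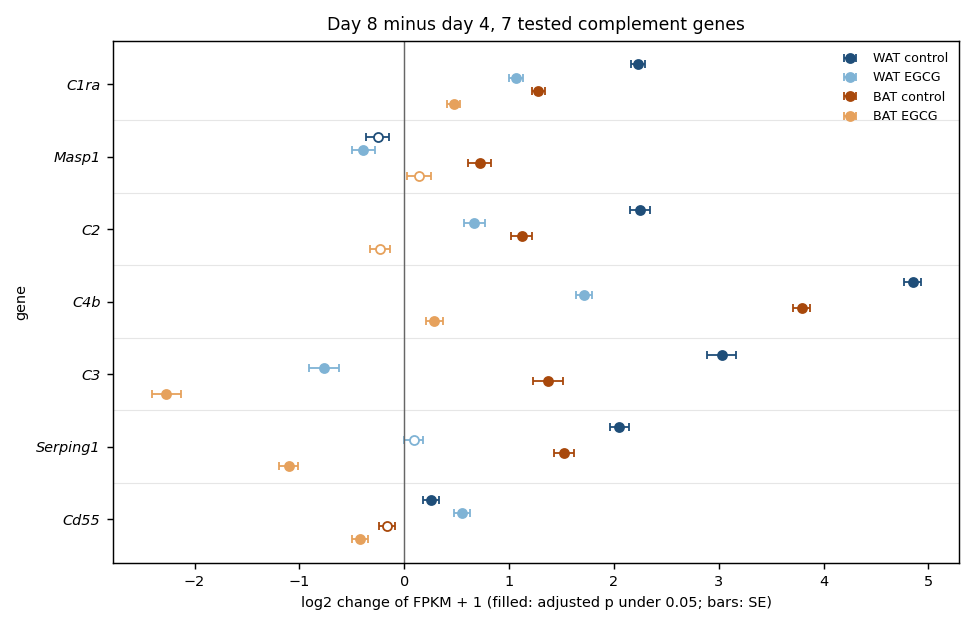
Log2 change of FPKM + 1 from day 4 to day 8 (x axis) for the 7 tested complement genes (y axis) in control and EGCG cells of WAT and BAT. Points are limma estimates with SE bars from replicates 1 and 2, filled where the adjusted p was under 0.05. C3 lies at 3.03 and 1.37 in WAT and BAT controls and at -0.76 and -2.27 with EGCG.

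The change with EGCG was tested for a difference between days. In WAT this difference (day 8 minus day 4) was called for 6 of 7 genes, against 49.4% of all genes, and in BAT for 6 of 7, against 55.4%. For C3 it was -3.79 ± 0.20 (SE, adjusted p 1.41e-07) in WAT and -3.64 ± 0.20 (SE, adjusted p 9.88e-08) in BAT, and for C4b -3.14 ± 0.11 (SE, adjusted p 7.27e-09) and -3.50 ± 0.11 (SE, adjusted p 2.45e-09). Serping1 followed with -1.96 and -2.62, C2 with -1.58 and -1.35, and C1ra with -1.16 and -0.81. Masp1 was called in BAT (-0.58 ± 0.16 SE, adjusted p 0.00847) and not in WAT (-0.14, adjusted p 0.498). Cd55 was called in WAT (0.30 ± 0.11 SE, adjusted p 0.0366), where 5 of 7 other settings ended the call, and not in BAT (-0.26, adjusted p 0.0619). The WAT call of Cd55 was also lost without WAT day 4 control replicate 1, WAT day 4 EGCG replicate 2, WAT day 8 control replicate 1 or 2, or WAT day 8 EGCG replicate 2 (0.23 to 0.31, adjusted p 0.0607 to 0.142).

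White and brown cells differed in most of these genes on day 8. In day 8 controls 5 of 7 genes were lower and 1 higher in BAT than in WAT, beside 53.6% of all genes called in either direction. C1ra was 3.41-fold lower in BAT (-1.74 ± 0.065 SE, adjusted p 4.72e-09), C2 3.13-fold lower (-1.41 ± 0.099 SE, adjusted p 4.05e-07), C4b 1.75-fold lower (-0.80), C3 lower with -0.79 and Cd55 with -0.51 on the log2 scale. Masp1 was 1.90-fold higher (0.71 ± 0.11 SE, adjusted p 0.000221) and Serping1 was not called (-0.13, adjusted p 0.253). In the same controls all 5 tested stromal and progenitor markers were lower in BAT (median -1.50), as were 4 of 7 macrophage and 4 of 5 endothelial markers, and 6 of 8 mature adipocyte markers were higher. The part of these cell types in the depot differences was not tested. With EGCG on day 8, 6 of 7 genes were lower in BAT and none higher, beside 38.4% of all genes, with C4b 4.91-fold lower (-2.12 ± 0.079 SE, adjusted p 1.05e-08) and Serping1 2.12-fold lower (-1.07 ± 0.093 SE, adjusted p 6.29e-06). Masp1 had -0.13 (unadjusted p 0.276). The C2 difference was -0.83 and became -1.41 with a pseudocount of 0.1, and the Cd55 call (-0.34) was lost without WAT day 8 EGCG replicate 2 (-0.27, adjusted p 0.0516). Of the markers in EGCG cells on day 8, 4 of 5 stromal ones were lower in BAT and 1 higher. Of the 8 mature adipocyte ones 7 were higher and 1 lower, but their summed FPKM was lower in BAT (464.0 to 471.9) than in WAT (650.3 to 712.2). 

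On day 4 the depots gave a mixed picture. Among controls 3 genes were higher in BAT (C3, C4b and Serping1) and 2 lower (C2 and C1ra), beside 55.8% of all genes, for which the median log2 difference was 0.15. C3 (0.87 ± 0.14 SE, adjusted p 0.000342) and C1ra (-0.79 ± 0.065 SE, adjusted p 2.52e-06) kept their calls under each alternative run. With median-ratio scaling or quantile normalization 1 gene was higher and 4 were lower. C4b (0.11 and 0.12, adjusted p 0.294 and 0.160) and Serping1 (0.23 and 0.22, adjusted p 0.0666 and 0.133) were no longer called, and Masp1 (-0.38 and -0.41, adjusted p 0.0139 and 0.00935) and Cd55 (-0.22 and -0.27, adjusted p 0.0316 and 0.0126) became calls. Among the markers in day 4 controls, 6 of 7 macrophage and 7 of 8 mature adipocyte markers were higher in BAT, and 3 of 5 stromal and 4 of 5 endothelial markers lower. Those in EGCG cells on day 4 were higher in BAT for 6 of 7 and 7 of 8 of the first 2 lists and lower for 4 of 5 stromal markers. With either treatment 1 mature adipocyte marker was lower in BAT and 1 stromal marker higher. The C2 call (-0.29, adjusted p 0.029) ended in 6 alternatives, among them without BAT day 4 control replicate 1 (adjusted p 0.0709) or 2, and that of C4b without BAT day 4 control replicate 1 (adjusted p 0.0817). When WAT day 4 control replicate 2 was left out, 3 of the 7 genes were called, C2 and C4b being lost (adjusted p 0.175 and 0.0677). With EGCG on day 4, 2 genes were higher in BAT (C3 and Cd55) and 3 lower (C4b, C1ra and Masp1), beside 48.7% of all genes. The C3 difference (0.49 ± 0.14 SE, adjusted p 0.0142) was lost without WAT day 4 EGCG replicate 1 (adjusted p 0.0962) or BAT day 4 EGCG replicate 2 (adjusted p 0.143).

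The response to EGCG itself differed between depots for some genes. On day 4 the difference (BAT minus WAT) was called for 2 of 7 genes, against 28.1% of all genes: C4b fell more in BAT (-0.96 ± 0.11 SE, adjusted p 0.000106) and Cd55 rose more (0.73 ± 0.11 SE, adjusted p 0.000529). On day 8 it was called for 4 of 7, against 39.2%, with larger falls in BAT for C4b (-1.32 ± 0.11 SE, adjusted p 5.7e-06), Serping1 (-0.94 ± 0.13 SE, adjusted p 0.000202) and Masp1 (-0.84 ± 0.16 SE, adjusted p 0.00147) and a smaller one for C2 (0.59 ± 0.14 SE, adjusted p 0.00646). The C2 value shrank to 0.22 with a pseudocount of 0.1 (adjusted p 0.491) and to 0.12 with voom on recovered reads (adjusted p 0.731). For C3 the difference was -0.38 on day 4 (adjusted p 0.183) and -0.22 on day 8 (adjusted p 0.41), and for C1ra -0.23 (adjusted p 0.0823) and 0.12 (adjusted p 0.337).

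Ordered by mean FPKM of replicates 1 and 2, WAT day 8 control came first and BAT day 8 control next for C1ra, C2, Cfb, C4b, C3 and Serping1. The lowest group was BAT day 8 EGCG for C3, C2 and Serping1 and BAT day 4 EGCG for C4b, C1ra, Cfb and Masp1. For Masp1 BAT day 8 control was highest (4.61 ± 0.410 FPKM SD, n = 2), and WAT day 4 EGCG, WAT day 8 control and BAT day 4 control overlapped in the middle of its order. For Serping1 the 4 groups from WAT day 4 control to WAT day 4 EGCG, with means of 172.9 down to 151.8 FPKM, overlapped each with the next in order, while the first and the last of them were apart. For C2 the means of BAT day 4 control, BAT day 4 EGCG and WAT day 4 EGCG (1.06, 1.002 and 0.905 FPKM) overlapped likewise. Cd55 had its own order, with the 4 EGCG groups above the 4 control groups, from 7.74 ± 0.759 (BAT day 4) and 7.25 ± 0.605 (WAT day 8), which overlapped, down to 2.62 ± 0.157 FPKM (SD, n = 2, BAT day 8 control).

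The replicate 3 libraries, which entered no test, showed the same sign as the fit in 77 of 88 called gene and comparison pairs as deposited and in 87 of 88 after rescaling of WAT day 8 EGCG. The exception after rescaling was Cd55 between days in WAT controls.

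For each tested gene the 2 genes with the most similar pattern were sought among all 14095, by Pearson's r over the 8 group means of log2(FPKM + 1), which is a description of 8 points that share libraries and depth. Serping1 was most like Lbp, the lipopolysaccharide-binding protein, with r = 0.996 (0.993 over the 8 libraries of replicate 3), and like Tkt (0.966). C4b was nearest to Susd2 (0.989) and Flt3l (0.985), and C2 to Psmb8 (0.979), an immunoproteasome subunit, and 1810010H24Rik (0.978). C3 was nearest to Trafd1 (0.975) and Serpina3c (0.973), and C1ra to Olfml1 (0.980) and Sp140 (0.980). Cd55 resembled Pqlc1 and Chst14 (0.955 and 0.954), with lower values in replicate 3 (0.824 and 0.705). The nearest genes of Masp1 were the low-level gene models Gm14794 (0.968) and Gm7694 (0.947), of which Gm7694 had -0.011 in replicate 3 and Gm14794 gave no value there. Among the members, C2 and C1ra (0.939), C2 and C4b (0.935) and C3 and Serping1 (0.934) ran most alike, and Masp1 and Cd55 most opposite (-0.877).

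The rest of the complement system was read from a list of 36 further genes, of which 19 were tested. EGCG raised 11 and lowered 3 of the 19 in WAT on day 4, raised 1 and lowered 15 in WAT on day 8, raised 8 and lowered 7 in BAT on day 4, and raised 1 and lowered 16 in BAT on day 8. Of all genes tested it raised 34.4%, 44.7%, 27.9% and 46.5% and lowered 19.3%, 18.9%, 20.6% and 26.1%, in the same order. With median-ratio scaling the counts of the 19 genes were 10 and 3, 1 and 17, 7 and 7, and 1 and 17. Cfd (adipsin) fell most in each comparison, with log2 changes of -4.19, -8.22, -2.81 and -6.81 in WAT on days 4 and 8 and BAT on days 4 and 8. C1s, the partner protease of C1r, fell as well (22.4% of its exonic bases are shared with other genes), with -0.64, -1.42, -0.96 and -1.88 in the same order, all called. The 3 chains of C1q (C1qa, C1qb and C1qc), the recognition unit of the classical pathway that macrophages make, were higher with EGCG on day 4 and lower on day 8 in both depots. C1qa FPKM in replicates 1, 2 and 3 was 7.38, 7.24 and 9.15 in WAT controls and 14.1, 13.2 and 12.4 with EGCG on day 4, and 17.3, 26.5 and 24.0 and 1.61, 1.785 and 0.854 (2.19 rescaled) on day 8, which is the way the list of macrophage markers moved, of which C1qa is a member. The receptors for the fragments C3a and C5a, C3ar1 and C5ar1, likewise had positive changes on day 4 (C3ar1 0.38 in WAT and 0.64 in BAT) and negative ones on day 8 (-0.73 and -0.30), all called.

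Among plasma regulators, Cfi (factor I) fell by 1.44 in WAT and 0.43 in BAT on day 8. Its level was low, so that the pseudocount shrinks these values, and the ratio of mean FPKM was 6.44 in WAT (2.93 to 0.455 FPKM) and 8.01 in BAT (0.415 to 0.0519 FPKM). Cfp (properdin), which steadies the alternative convertase, had 0.45 in WAT on day 4 and negative changes in the other 3 comparisons (-1.28, -0.44 and -0.90), all called. Clu (clusterin) had 1.03, -1.43 and -3.96 in WAT on day 4, WAT on day 8 and BAT on day 8, all called, and -0.35 in BAT on day 4 (adjusted p 0.313). Vtn, another regulator of the list, had 0.72 in WAT on day 4, -2.91 in WAT on day 8, -1.12 in BAT on day 4 and -2.265 in BAT on day 8, all called. Of the other membrane regulators, Cd59a rose on day 4 (0.39 in WAT, a call lost under both scalings, and 1.12 in BAT) and was not called on day 8 (adjusted p 0.402 and 0.38). Cr1l rose in BAT on day 4 (0.18, lost under both scalings) and fell there on day 8 (-0.25), and under both scalings it was also called lower in WAT on day 8 (-0.29 and -0.27, adjusted p 0.00187 and 0.00329). Cd46 was called once, lower in BAT on day 4 (-0.45), with median-ratio scaling also lower on day 8 (-0.42 in WAT and -0.38 in BAT). Hc, which encodes C5, was the one further gene that rose in all 4 comparisons (0.41, 0.70, 0.29 and 0.64), from 1.98 ± 0.247 to 3.84 ± 0.306 FPKM (SD, n = 2) in WAT on day 8. In replicate 3 its change in WAT on day 8 was -0.53 as deposited and 0.35 after rescaling.

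**Figure D5:**
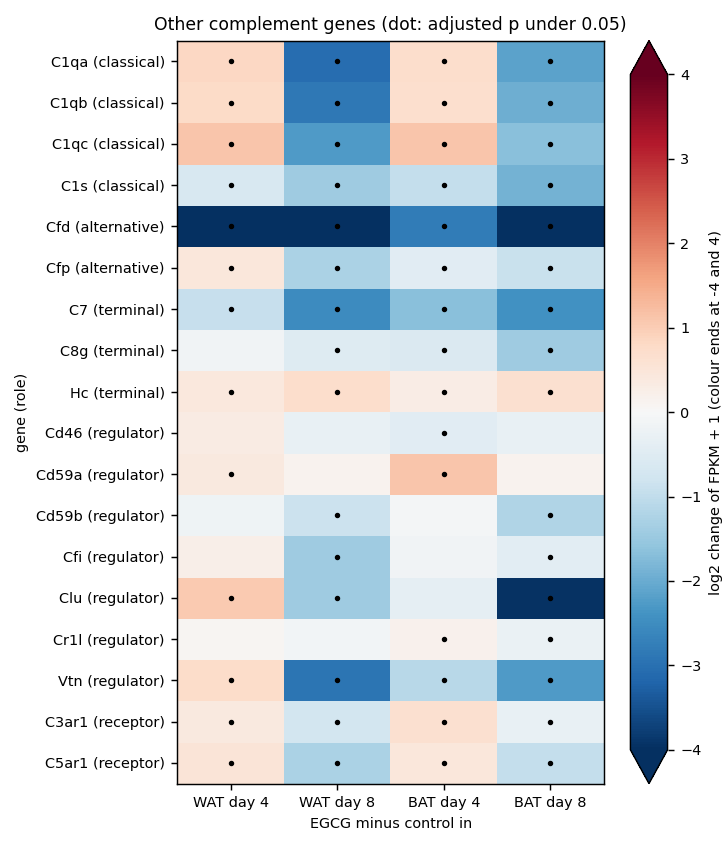
Log2 change of FPKM + 1 between EGCG and control cells (colour, ending at -4 and 4) for 18 of the 19 other tested complement genes (rows, with their role) in WAT and BAT on days 4 and 8 (columns), with a dot where the adjusted p was under 0.05. The 3 C1q genes change colour between the days, Hc is red in all 4 columns and Cfd is blue in all 4.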

How the data were processed

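RNA was measured by sequencing in 24 libraries. Per the labels, total RNA was extracted with Trizol and libraries were made with a standard Illumina protocol, and the submitters' processing notes name FastQC 0.11.9, HISAT2 2.2.0, HTSeq 0.11 and the mouse build mm9. The authors deposited FPKM values for 37310 genes in 2 tables, one of 16 libraries (replicates 1 and 2) and one of 8 (replicate 3). From FPKM and the gene lengths (the longest transcript of GENCODE vM1) whole reads were recovered within 0.01 for 100% of values in each library. Strand and the treatment of shared exons in counting are not given in the sources used here. Gene symbols and exons came from GENCODE vM1.

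Tests were run on the 16 libraries of the first table with limma 3.58.1 in R 4.3.3 (trend on mean level) on log2(FPKM + 1), with 1 mean per group and a shared spread, for 14095 genes of at least 1 FPKM in at least 2 libraries. Benjamini-Hochberg adjustment was applied within each of 16 comparisons (threshold 0.05). A log2 change on this scale understates that of low genes. Tests were checked on simulated data. Genes were named by rule: all 8 members, the near copies C4a, C1rb and Cd55b, and for each tested member the 2 genes of highest Pearson's r. From a list of 36 further complement genes a chosen part was named, among them C1s, C1qa, Hc and some, not all, of the regulators and receptors. The one that EGCG changed most in each comparison (Cfd in all 4) was added. C1qb, C1qc, Cd59b, Vtn, Gm20547 and the low genes of the closing section were named after their values had been seen. The values of 1 gene of that list are not reported here. The members and lists were chosen with earlier results of these data known. Replicates 1 and 2 differed by more than counting error in every group (median chi-square of 1.62 to 3.90 per gene, where 0.455 is expected), and the replicate numbers did not pair the samples. Alternatives were another pseudocount (0.1), no filter, median-ratio scaling, quantile normalization, a fit of the groups compared only, voom on recovered reads, a replicate block and each library left out. The rescaling of 1 replicate 3 library, the unfiltered values of Cfb, the comparison of the tables and the scaling checks of other lists were chosen after seeing the data. Promoters came from RefSeq (GRCm38.p6), with the 50 bases after the start left out.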

Additional observations from a re-analysis of the deposited data

Results flagged for a closer look

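For 18 combinations of the 7 tested genes and 4 comparisons the EGCG change differed between depots or between days by a test of the difference itself (limma, adjusted p under 0.05, log2 scale). Such calls were common: the same tests called 28.1% (depots, day 4), 39.2% (depots, day 8), 49.4% (days, WAT) and 55.4% (days, BAT) of all genes. Between depots (BAT minus WAT) on day 4 the difference was -0.96 for C4b and 0.73 for Cd55. On day 8 it was 0.59 for C2, -1.32 for C4b, -0.94 for Serping1 and -0.84 for Masp1. Between days (day 8 minus day 4) in WAT it was -1.58 for C2, -3.79 for C3, -3.14 for C4b, -1.16 for C1ra, -1.96 for Serping1 and 0.30 for Cd55. In BAT it was -1.35 for C2, -3.64 for C3, -3.50 for C4b, -0.81 for C1ra, -2.62 for Serping1 and -0.58 for Masp1. In replicate 3 the sign was the same for 14 of 18 as deposited, the exceptions being C4b, Serping1 and Masp1 between depots on day 8 and Cd55 between days in WAT, and for all 18 after rescaling of WAT day 8 EGCG. No search for single outlying samples was made, since each group held 3 libraries.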

How the results depend on the processing

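Of 88 calls, none reversed in any alternative. With 1 library left out 1388 values kept the call and 20 lost it, and under the other settings 598 kept it and 18 lost it. They concerned C2, C3, C4b, Serping1, Masp1 and Cd55, and no call of C1ra was lost. Values that were not called gained a call in some alternatives, among them the depot difference of the EGCG change on day 4 for C2 with median-ratio scaling and quantile normalization (0.42 and 0.45), C1ra with a pseudocount of 0.1 (-0.29), Masp1 with voom (-0.64) and Serping1 without BAT day 4 EGCG replicate 2 (-0.42), the day difference for Cd55 in BAT with median-ratio scaling (-0.36), and C2 between days in BAT EGCG cells with a pseudocount of 0.1 (-0.46). The number of genes called between BAT and WAT day 4 controls ranged from 3 to 5 with 1 library left out. The replicate numbers pair nothing in the labels, and deviations of same-numbered libraries correlated at -0.079 to 0.081 over 28 pairs of groups; with a replicate block limma called 5, 7, 6 and 7 of the 7 genes for EGCG (WAT day 4, WAT day 8, BAT day 4, BAT day 8), as without it, and it changed no other call. Median-ratio scaling took the share of higher genes among all calls from 64.1% to 44.7%, from 70.3% to 51.3% and from 64% to 51.8% for EGCG in WAT on day 4, WAT on day 8 and BAT on day 8, from 41.5% to 53.3% for days in BAT controls, from 74.3% to 51.6% and from 67.6% to 56.9% for depots on day 4 (control and EGCG), from 42.7% to 61.5% for the depot difference of the EGCG change on day 4, and from 62.8% to 49.3% for its day difference in BAT. Quantile normalization gave 52.5% for EGCG in WAT on day 4, 54.4% and 50.7% for depots on day 4, and 53.4% in place of 63.6% for depots on day 8 with EGCG. Low counts limit Cfb, which stayed within 1 to 18 reads in 6 of 8 groups of the first table. In WAT day 8 controls it had 174 and 96 reads there and 464 in the shallower library of replicate 3. The reason for the low counts was not tested.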

Other observations

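Of the 36 further complement genes 17 failed the expression filter. Mbl1 and C8b were at 0 in all 16 libraries of replicates 1 and 2. The recognition molecules and collectins of the lectin pathway were low, with Mbl2 at most 0.0175, Fcna at most 0.422, Fcnb at most 0.241 and Colec11 at most 0.793 FPKM, and its second protease, Masp2, at 0.0124 to 0.203 FPKM, 54.9% of its exonic bases being shared with Tardbp. Of the terminal components, C6 reached 0.460 FPKM, C8a 0.0297 and C9 0.0140, whereas Hc, C7 and C8g passed the filter. The receptors Cr2 and Vsig4 reached 0.0520 and 0.184 FPKM.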
